A study of Homo sapiens with 6 samples.

Results

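Lipid droplets are the stores in which cells keep triglyceride and sterol esters, and this account covers 10 genes that coat those droplets or build and break down the triglyceride inside them: PLIN2, PLIN3, DGAT1, DGAT2, LPIN1, PNPLA2, PNPLA3, MGLL, ABHD5 and HILPDA. They were taken by symbol from a table of 16362 genes, in which each had 1 row. PLIN2 and PNPLA3 were chosen because they changed in this same comparison, so their values are given as a description with no test. The other 8 were chosen for their function. Read counts came from MDA-MB-231, an established human triple-negative breast cancer cell line commonly described as mesenchymal, in 3 libraries treated with CTI-2 for 24 h and 3 control libraries that received no agent. CTI-2 is a code name; its dose, its solvent and any vehicle in the controls are not stated in the labels. All libraries were made from total RNA with an Oxford Nanopore cDNA-PCR kit, which reads whole cDNA molecules. The labels do not say whether the 3 libraries of a group are separate cultures, and p-values measure only the spread between these libraries, which may be technical.

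A droplet is enclosed by a phospholipid layer studded with perilipins, proteins that limit the access of lipases to the stored fat. Triglyceride is made on the endoplasmic reticulum: lipins convert phosphatidate to diacylglycerol, and the DGAT enzymes add the last fatty acid. It is broken down in sequence by PNPLA2, also called adipose triglyceride lipase, then by hormone-sensitive lipase and last by the monoglyceride lipase MGLL, with ABHD5 as the activator of PNPLA2 and HILPDA and G0S2 as its inhibitors. Cancer cells are known to keep such droplets as a store of fatty acids and as a buffer against free fatty acids.

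Total counts were 2208261 to 3153469 in CTI-2 libraries and 2349758 to 3929532 in control libraries, and levels are given as CPM, counts per 1000000 counts of the library. In these libraries 3 counts amount to 0.763 to 1.36 CPM. All 8 listed mesenchymal markers were read, with summed levels of 3411 to 3455 CPM in CTI-2 libraries and 2920 to 3138 CPM in controls. Most of each sum was S100A4, at 2251 to 2802 CPM over all libraries. CD44, CAV1, MSN and SPARC stood between 57.0 and 225 CPM. AXL was low, at 2.98 to 7.41 CPM, as was ZEB1, at 14.8 to 19.9 CPM. VIM, commonly described as abundant in this line, stood at only 14.5 to 18.9 CPM. The luminal genes ESR1 and GATA3 had at most 2 counts in a library, and CDH1 had at most 1, while ERBB2 stood at 4.98 to 11.1 CPM and EPCAM at 6.98 to 10.6 CPM. Of the adipocyte genes, PLIN1, the perilipin of fat cells, had at most 4 counts and CIDEC at most 1, so defining markers of fat cells were at or near 0 in both groups. In bulk RNA, fewer cells of a kind and less RNA per cell cannot be told apart.

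The promoters of PLIN2 and PLIN3, the pair of coat proteins on this list, are shown as a description. A link between these sequences and the reads of the genes was not tested. Promoter entries from RefSeq on GRCh38.p14 matched 5 of the 10 genes. The 250 bases before a RefSeq start of each gene are printed 5′ to 3′ on the strand of the gene, with the letters CACGTG, a palindromic E-box, in capitals. For PLIN2 this start lies inside the gene span of GENCODE 29, which begins further upstream. The first lies at chr9:19127493-19127742 on the minus strand and the second at chr19:4867668-4867917 on the minus strand.
PLIN2: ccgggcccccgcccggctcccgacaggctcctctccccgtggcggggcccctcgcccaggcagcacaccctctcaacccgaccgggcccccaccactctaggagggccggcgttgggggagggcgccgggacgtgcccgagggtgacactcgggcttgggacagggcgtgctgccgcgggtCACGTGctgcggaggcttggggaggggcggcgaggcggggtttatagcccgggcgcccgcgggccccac
PLIN3: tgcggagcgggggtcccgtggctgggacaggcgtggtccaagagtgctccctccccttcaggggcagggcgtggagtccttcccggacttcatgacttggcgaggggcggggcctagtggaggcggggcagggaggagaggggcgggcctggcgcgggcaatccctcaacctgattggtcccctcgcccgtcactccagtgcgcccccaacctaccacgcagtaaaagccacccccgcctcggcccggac

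The PLIN2 window held CACGTG, with its first base 69 bases before the start, and the PLIN3 window did not. Of 34788 distinct windows of the same length in the table, 6.31% held it. The letters CCAAT were in the PLIN3 window, as in about 32% of all windows, and TATAAA on either strand was in the PLIN2 window, as in 10.8%. ACGTG was in the PLIN2 window, both within CACGTG and at a separate site further from the start, and in 18.5% of all windows. A direct repeat of AGGTCA with 1 base between the copies, a consensus for PPAR receptors, was in neither window and in 0.0115% of all. Both strands were searched, and these are matches of letters only. PLIN2 GC content in this window was 78.0% and that of PLIN3 was 70.8%.

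PLIN2 gave the most reads of the 10 genes in every library, with no scaling by transcript length. It encodes perilipin 2, a coat protein found on droplets of most cell types. Its level was 121, 127 and 130 CPM in CTI-2 libraries 1 to 3, against 74.0, 77.4 and 72.8 CPM in controls 1 to 3. All 3 CTI-2 libraries lay above all 3 controls, as they did for 13.2% of all tested genes. The means were 126 ± 4.91 CPM after CTI-2 and 74.7 ± 2.38 CPM in controls (SD, n = 3 per group). The edgeR log2 fold change of PLIN2 was 0.80 (SE 0.12), a 1.74-fold higher level with a 95% interval of 1.48 to 2.04. Since PLIN2 was chosen for this change, the interval is a description and not a test. The libraries of each group were close to each other: the coefficient of variation of PLIN2 was 3.89% after CTI-2 and 3.19% in controls, below the 5.4% after CTI-2 and 6.92% in controls that counting error alone gives at these reads. PLIN2 was picked from these same libraries, so this closeness is a description too. PLIN2 lies on chromosome 9, and no other counted gene overlaps it in GENCODE 29.

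PLIN3, a perilipin that moves between the cytosol and nascent droplets, had few reads. It had 13, 15 and 3 counts in CTI-2 libraries and 11, 12 and 13 counts in controls, so the groups overlapped and CTI-2 library 3 was the lowest of the 6. The means were 3.51 ± 1.92 CPM after CTI-2 and 4.27 ± 1.24 CPM in controls (SD, n = 3 per group). The log2 fold change was -0.11, with a 95% interval of -0.94 to 0.72 (edgeR adjusted p = 0.909). That interval reaches a fold of 1.65 upwards, under the 1.74 of PLIN2 but above 1.48, where the interval of PLIN2 begins. It cannot show whether PLIN3 rose by a like amount. Without CTI-2 library 3 the log2 fold change was 0.20, and without control 3 it was 0.06.

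**Figure D1:**
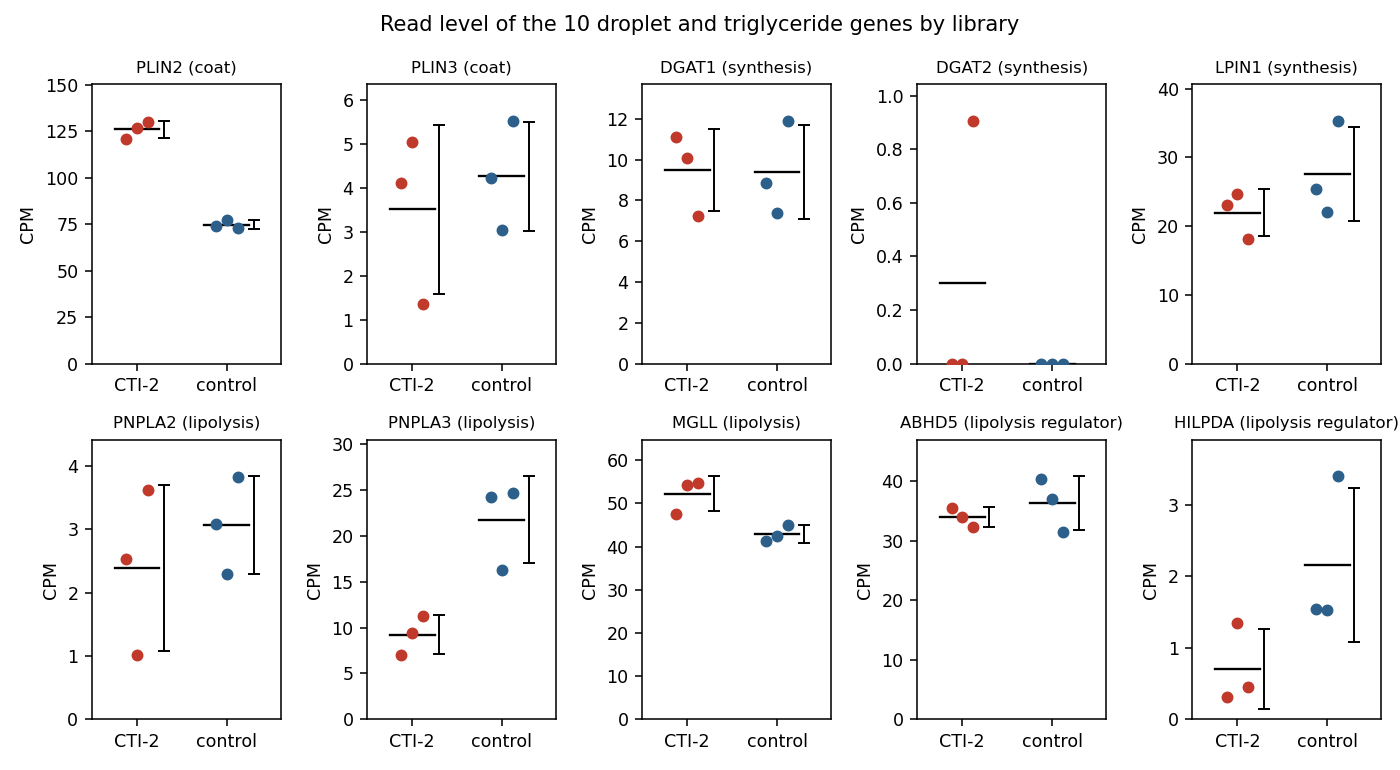
Read level in CPM (vertical axes, each from 0) of the 10 genes in 3 CTI-2 libraries (left in each panel) and 3 control libraries (right); points are libraries, horizontal lines the mean and side bars the SD, with no SD drawn for DGAT2. PLIN2 lies at 121 to 130 CPM after CTI-2 and 72.8 to 77.4 CPM in controls, PNPLA3 at 6.98 to 11.3 CPM after CTI-2 and 16.3 to 24.7 CPM in controls, and most other panels overlap.

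Among the genes of triglyceride synthesis none passed the test. LPIN1, the phosphatidate phosphatase that supplies diacylglycerol, stood at 23.1, 24.6 and 18.1 CPM in CTI-2 libraries and at 25.4, 22.1 and 35.3 CPM in controls. The groups overlapped, and control 3 was the highest of the 6 libraries. The log2 fold change of LPIN1 was -0.24, with a 95% interval of -0.61 to 0.13 (edgeR adjusted p = 0.453), and without control 3 it was -0.07. The spread of LPIN1 among controls, a coefficient of variation of 24.8%, was above the 11.4% that counting gives. LPIN1 spans bases 11677595 to 11827409 of chromosome 2 (plus strand) in GENCODE 29 on GRCh38.

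DGAT1, which makes triglyceride in the endoplasmic reticulum, was read at 11.1, 10.1 and 7.25 CPM in CTI-2 libraries and 8.86, 7.38 and 11.9 CPM in controls. No library stood apart. Its log2 fold change was 0.13, with a 95% interval of -0.40 to 0.65 (edgeR adjusted p = 0.814). DGAT1 overlaps HSF1, a heat shock transcription factor gene on the opposite strand, and no source used here says if reads were counted by strand. HSF1 itself had a log2 fold change of 0.46 (edgeR adjusted p = 0.109). DGAT2, the second triglyceride-making enzyme, which acts at the droplet surface, had 2 counts in CTI-2 library 3 and none elsewhere, at or under the level a count of 0 allows, so it was not detectable at this depth and no fold is given.

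Of the 7 genes that passed the filter, PNPLA3 had the largest change. It encodes a droplet-bound protein of the patatin family with triglyceride lipase activity that can bind ABHD5 and is known in liver as a gene under control of insulin and SREBP-1c. PNPLA3 was read 22, 28 and 25 times in CTI-2 libraries, against 63, 64 and 58 times in controls. In CPM these are 6.98, 9.44 and 11.3 after CTI-2 and 24.3, 16.3 and 24.7 in controls. The groups did not overlap, and control 2 lay nearest to the CTI-2 libraries. Every CTI-2 library lay below every control for 15.6% of all tested genes. The means were 9.24 ± 2.18 CPM after CTI-2 and 21.7 ± 4.73 CPM in controls (SD, n = 3 per group). PNPLA3 had an edgeR log2 fold change of -1.18 (SE 0.23), a 2.26-fold lower level with a 95% interval of 1.64 to 3.12. The log2 fold change was -1.33 without control 2. Since PNPLA3 was also chosen for its change, this interval is no test either. PNPLA3 spans bases 43923739 to 43964488 of chromosome 22 (plus strand) in GENCODE 29, where its span overlaps that of SAMM50, a gene of the mitochondrial outer membrane on the same strand. SAMM50 did not share the direction of PNPLA3: it stood at 159 ± 9.70 CPM after CTI-2 and 135 ± 1.77 CPM in controls (SD, n = 3 per group; log2 fold change 0.28, edgeR adjusted p = 0.106). No source used here says how reads of the shared stretch were divided, so the level of PNPLA3 is uncertain.

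MGLL, which releases the last fatty acid from monoglycerides, was the gene chosen for function that came nearest to the threshold. It stood at 47.6, 54.3 and 54.8 CPM in CTI-2 libraries and at 41.2, 42.5 and 45.1 CPM in controls. Every CTI-2 library lay above every control. The log2 fold change was 0.32 with a 95% interval of 0.05 to 0.60, a fold of 1.25, and it did not pass over all genes (edgeR adjusted p = 0.132). Groups did not overlap for 28.8% of all tested genes, and 23.9% had an unadjusted p under 0.05. MGLL spans bases 127689062 to 128052190 of chromosome 3 (minus strand) in GENCODE 29 and overlaps SEC61A1, a translocon gene on the opposite strand. SEC61A1 fell (log2 fold change -0.35, edgeR adjusted p = 0.0464).

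PNPLA2, the lipase that opens triglyceride breakdown, had 8, 3 and 8 counts in CTI-2 libraries and 8, 9 and 9 counts in controls and was below the filter on low counts. The ratio of its summed counts per total, CTI-2 over control, was 0.779, with an exact 95% counting interval of 0.407 to 1.46. Its activator ABHD5 was read at 35.5, 34.0 and 32.2 CPM in CTI-2 libraries and 40.4, 36.9 and 31.5 CPM in controls. The groups overlapped. The log2 fold change was -0.05, with a 95% interval of -0.36 to 0.26, narrower than those of DGAT1 and PLIN3 (edgeR adjusted p = 0.874). ABHD5 overlaps ANO10 on the opposite strand, which had a log2 fold change of -0.47 (edgeR adjusted p = 0.137).

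HILPDA, a small droplet protein induced by hypoxia that inhibits PNPLA2, was read 1, 4 and 1 times in CTI-2 libraries and 4, 6 and 8 times in controls. In CPM the groups did not overlap, at 0.317 to 1.35 after CTI-2 and 1.53 to 3.40 in controls, but the gene was below the filter. Groups also did not overlap for 28.8% of the genes that passed it. The ratio of its summed counts per total was 0.355, with an exact 95% interval of 0.115 to 0.934 that covers counting error only. In the fit with no filter its log2 fold change was -1.41 (edgeR adjusted p = 0.280). HILPDA is at the limit of this depth, since 3 counts already correspond to 0.763 CPM or more.

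**Figure D2:**
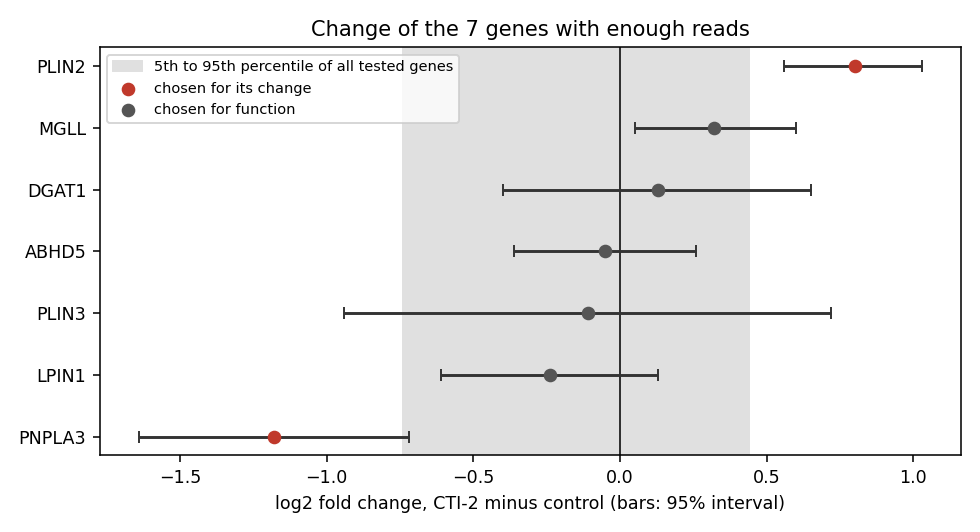
Log2 fold change, CTI-2 minus control (horizontal axis), of the 7 genes that passed the filter, with 95% intervals from edgeR's quasi-likelihood fit; red points were chosen for their change and grey points for function, and the grey band spans the 5th to 95th percentile of all tested genes, -0.74 to 0.44. PLIN2 at 0.80 and PNPLA3 at -1.18 lie outside the band, from which nothing follows because they were picked for their changes. The other 5 lie between -0.24 and 0.32.

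Of the 8 genes chosen for function, 5 passed the filter on low counts and none was called by edgeR's quasi-likelihood test at an adjusted p of 0.05, beside 8.03% of all 9848 tested genes (3.39% higher and 4.64% lower). At an unadjusted p under 0.05 there was 1, MGLL. DESeq2, which gave 3 of the 8 an adjusted p, and limma-voom also called 0. The median log2 fold change of the 5 was -0.05 and that of all tested genes was -0.01. PLIN2 and PNPLA3 are both among the called genes, from which nothing follows because they were picked for it.

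Seen as a whole, reads of the 10 genes summed to 252, 267 and 260 CPM in CTI-2 libraries and to 223, 209 and 234 CPM in controls. PLIN2 gave 47.9, 47.7 and 50.1% of these reads after CTI-2, against 33.2, 36.9 and 31.1% in controls. There were 17.3, 13.5 and 11.5 reads of PLIN2 for each read of PNPLA3 in CTI-2 libraries and 3.05, 4.75 and 2.95 in controls. This ratio within a library does not depend on its depth, but both genes were chosen for their changes. The shifts in the ratio and in the share of PLIN2 follow from that choice and are a description. By role, the 2 coat genes summed to 125 to 132 CPM after CTI-2 and 78.2 to 80.4 CPM in controls, nearly all of it PLIN2, which was chosen for its rise. Sums of the 3 synthesis genes, 26.3 to 34.7 CPM after CTI-2 and 29.5 to 47.2 CPM in controls, overlapped. So did those of the 3 lipases, at 57.1 to 69.7 CPM after CTI-2 and 61.1 to 73.6 CPM in controls. The regulators ABHD5 and HILPDA together had 32.6 to 35.8 CPM after CTI-2 and 34.9 to 42.0 CPM in controls.

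**Figure D3:**
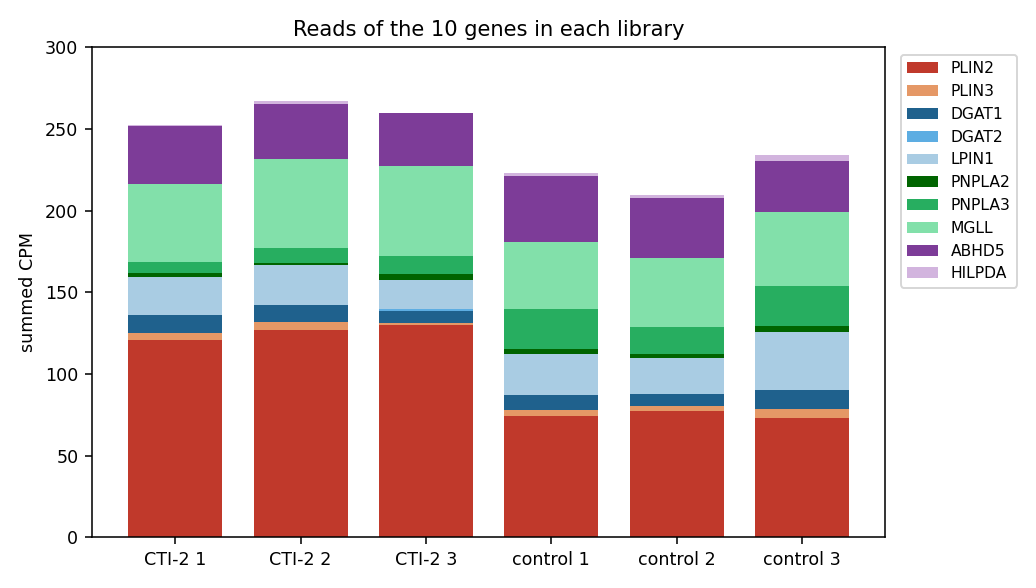
Summed CPM (vertical axis, from 0) of the 10 genes in each of 3 CTI-2 libraries (left) and 3 control libraries (right), with 1 colour per gene. PLIN2, chosen for its change, takes 47.7 to 50.1% of the reads after CTI-2 and 31.1 to 36.9% in controls.

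Other genes of droplet biology were read from 6 lists of 131 genes chosen by function, of which 118 had a row and 90 passed the filter. Of these 90, 2 rose and 2 fell (4.44%, beside 8.03% of all tested genes). In the list of droplet coat and assembly genes 0 of 16 tested genes passed in edgeR's quasi-likelihood test, and DESeq2 and limma-voom called 0. In edgeR 3 of the 16 had an unadjusted p under 0.05, beside 23.9% of all tested genes. The median log2 fold change of the list was -0.05. Examples are AUP1, a droplet protein that recruits ubiquitin enzymes, at 191 ± 15.0 CPM after CTI-2 and 186 ± 6.91 CPM in controls (SD, n = 3 per group), and FAF2, which brings VCP to droplets, at 98.9 ± 5.70 and 85.8 ± 8.27 CPM in the same order. PLIN4, a perilipin named here after its values were seen, was read at 15.9, 18.5 and 14.0 CPM in CTI-2 libraries and 29.3, 16.0 and 26.4 CPM in controls. Control 2 lay among the CTI-2 values, and the log2 fold change of PLIN4 was -0.46 (edgeR adjusted p = 0.156), or -0.67 without control 2 (adjusted p = 0.0230). PLIN1, PLIN5, CIDEB and CIDEC were below the filter.

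Among 18 tested genes of glycerolipid and sterol ester synthesis 0 passed in edgeR, DESeq2 or limma-voom, and the median log2 fold change was 0.01. In edgeR 1 of the 18 had an unadjusted p under 0.05, beside 23.9% of all tested genes. SOAT1, which esterifies cholesterol for storage, stood at 107 ± 4.09 CPM after CTI-2 and 120 ± 22.8 CPM in controls (SD, n = 3 per group). AGPAT5, an acyltransferase upstream of the lipins, stood at 54.0 ± 1.72 CPM after CTI-2 and 51.6 ± 10.7 CPM in controls. The 5 tested diacylglycerol kinases, which turn diacylglycerol back to phosphatidate, had a median of -0.29 and 0 calls in edgeR, DESeq2 and limma-voom, with 2 at an unadjusted p under 0.05 in edgeR. These were DGKD, with a log2 fold change of -0.32 (edgeR adjusted p = 0.198, or 0.0426 without control 2, where it was -0.46), and DGKH, named here after its values were seen, with 0.78 (edgeR adjusted p = 0.202). DGKH was read at 6.34, 4.04 and 6.34 CPM in CTI-2 libraries and 4.24, 2.04 and 4.26 CPM in controls, and the groups overlapped. DGKA, which overlaps PYM1 on the opposite strand, stood at 32.2 ± 4.79 CPM after CTI-2 and 34.1 ± 11.9 CPM in controls.

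Of 14 tested genes of lipolysis and its regulators 1 rose and 1 fell (14.3%, beside 8.03% of all tested genes), and the median log2 fold change was -0.02. VCP, a hexameric ATPase that extracts proteins from membranes and droplets for degradation and has many roles elsewhere, stood at 51.1, 84.6 and 93.3 CPM in CTI-2 libraries and 188, 142 and 151 CPM in controls. All CTI-2 libraries lay below all controls, as for 15.6% of all tested genes (log2 fold change -1.03, SE 0.19, edgeR adjusted p = 0.00664). VCP lost its call without control 2 (adjusted p = 0.0652) or control 3 (adjusted p = 0.0691), at log2 fold changes of -1.07 and -1.10. PNPLA4, a patatin family member related to PNPLA2 and PNPLA3, rose to 47.7 ± 2.25 CPM after CTI-2, against 34.7 ± 6.56 CPM in controls (SD, n = 3 per group; log2 fold change 0.47, edgeR adjusted p = 0.0496). Its call was lost in 10 of 15 alternatives, among them DESeq2 (adjusted p = 0.123) and the fit without control 1 (log2 fold change 0.33, adjusted p = 0.266). The lysosomal lipase gene LIPA stood at 111 ± 4.59 CPM after CTI-2 and 121 ± 24.8 CPM in controls, and UBXN4, which recruits VCP to the endoplasmic reticulum, at 119 ± 8.65 and 124 ± 11.1 CPM in the same order. LIPA overlaps interferon-induced genes on the opposite strand. G0S2, an inhibitor of PNPLA2 named here after its values were seen, had 21.9, 18.5 and 9.96 CPM in CTI-2 libraries and 23.1, 22.1 and 11.1 CPM in controls, with the third library lowest in each group (log2 fold change -0.11, edgeR adjusted p = 0.865).

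PLIN2 is a known target of PPAR receptors, which also induce genes of fatty acid oxidation. Of 19 tested genes on that list 1 rose and none fell (5.26%, beside 8.03% of all tested genes). The list had 17 positive log2 fold changes and a median of 0.19, beside 48.7% positive and a median of -0.01 over all tested genes. Over 15 alternatives the median ran from 0.14 to 0.26. An unadjusted edgeR p under 0.05 was found for 6 of the 19, beside 23.9% of all tested genes. The 7 list genes PPARA, RXRA, ANGPTL4, PDK4, CPT2, ACOT1 and FGF21 were below the filter. Whether PPAR receptors played a part in the level of PLIN2 was not tested. ACAA2, a thiolase of mitochondrial beta-oxidation, stood at 225, 222 and 202 CPM in CTI-2 libraries and 184, 176 and 163 CPM in controls (log2 fold change 0.36, SE 0.11, edgeR adjusted p = 0.0332). Groups did not overlap for ACAA2, as for 28.8% of all tested genes. ACAA2 lost its call in 6 of 15 alternatives, 5 of them fits without 1 library (adjusted p up to 0.153). HADHA, of the trifunctional protein of beta-oxidation, stood at 214 ± 18.8 CPM after CTI-2 and 187 ± 5.88 CPM in controls (SD, n = 3 per group; edgeR adjusted p = 0.164, or 0.0397 without control 2), and the fatty acid transporter gene CD36 at 692 ± 28.3 and 635 ± 122 CPM in the same order (edgeR adjusted p = 0.365). HADHA overlaps HADHB, and CD36 overlaps GNAT3, each on the opposite strand.

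HILPDA belongs to the genes induced by hypoxia. In that list 1 of 18 tested genes fell and none rose (5.56%, beside 8.03% of all tested genes), with a median log2 fold change of 0.02. The gene that fell was ANKRD37, at 2, 8 and 7 counts in CTI-2 libraries and 14, 28 and 9 counts in controls (log2 fold change -1.41, SE 0.45, edgeR adjusted p = 0.0436). ANKRD37 overlaps UFSP2 on the opposite strand, and its call was lost in 5 of the 12 alternatives that could test it. LDHA, lactate dehydrogenase A, stood at 4010 ± 106 CPM after CTI-2 and 3660 ± 194 CPM in controls (SD, n = 3 per group; edgeR adjusted p = 0.396, or 0.006 without control 2), and the collagen hydroxylase gene P4HA1 had a log2 fold change of 0.14 (edgeR adjusted p = 0.595).

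**Figure D4:**
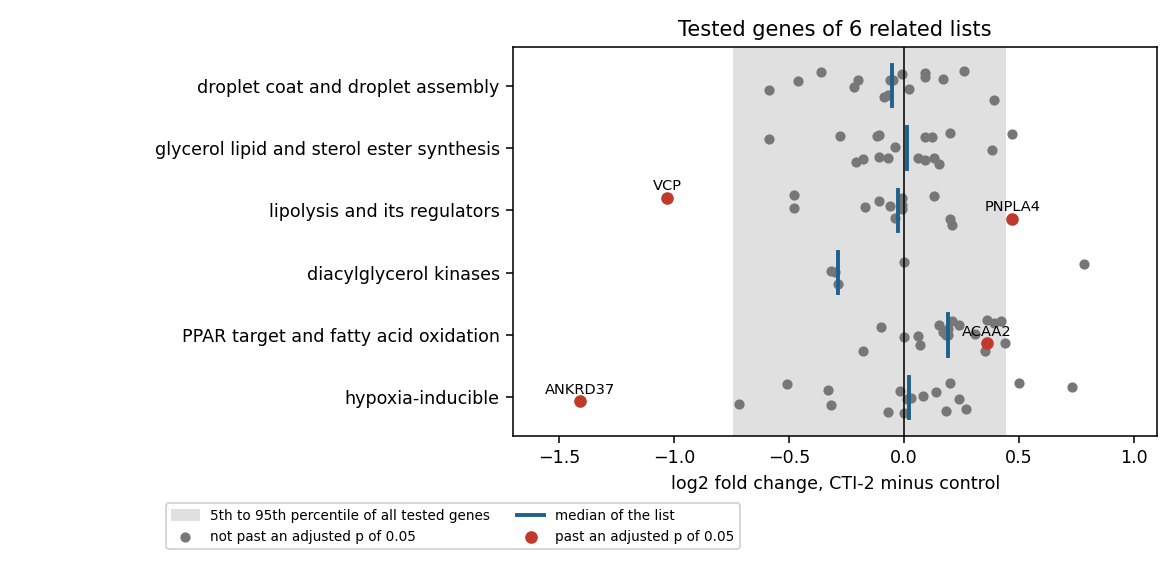
Log2 fold change, CTI-2 minus control (horizontal axis), of the 90 tested genes of 6 related lists; each point is a gene, red points passed an adjusted p of 0.05, blue lines mark list medians and the grey band spans the 5th to 95th percentile of all tested genes. VCP at -1.03 and ANKRD37 at -1.41 fell, PNPLA4 at 0.47 and ACAA2 at 0.36 rose, and the list medians lie between -0.29 and 0.19.

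The genes whose values over the 6 libraries were most like those of PLIN2, by the root mean square difference of centred log2 CPM among 6890 genes of at least 10 CPM, were TMEM99 (0.0610), PLAC8 (0.0626) and TCTEX1D2 (0.0682). For scale, PLIN2 itself deviated from its own mean by 0.408 on this measure. PLAC8 stood at 74.4 ± 3.38 CPM after CTI-2 and 42.5 ± 2.18 CPM in controls (SD, n = 3 per group). TCTEX1D2 overlaps a read-through gene and TMEM99 lies across from KRT10 on the other strand, so their counts are uncertain. Nearest to PNPLA3 among 9126 genes were CCDC189 (0.0932), TMEM143 (0.139) and CBSL (0.142), against 0.612 for the deviation of PNPLA3 from its own mean. CBSL had a log2 fold change of -1.10. CBSL is a near-identical copy of CBS and CCDC189 overlaps PHKG2 and RNF40, so these counts are uncertain too. Likeness here was searched for, so the levels of these genes are a description.

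**Figure D5:**
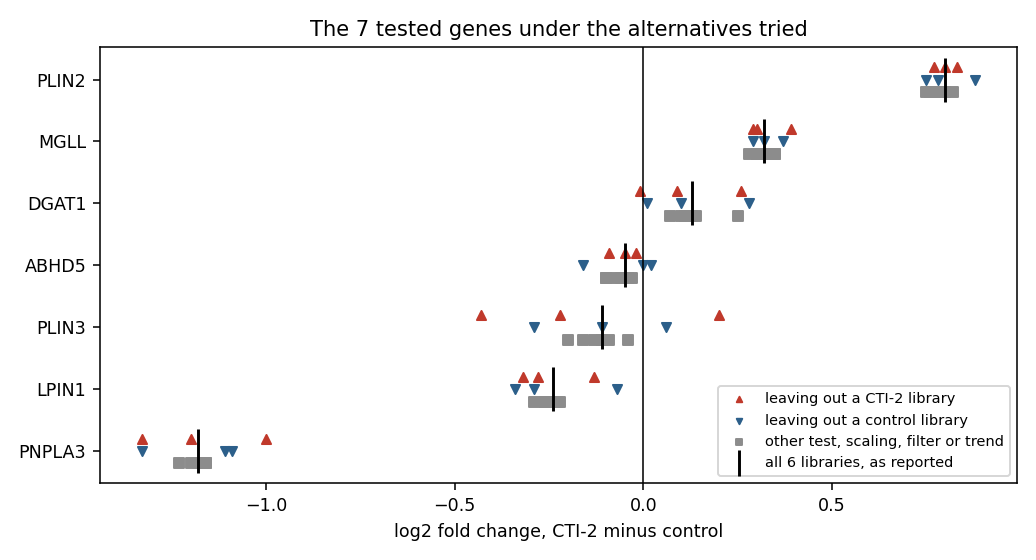
Log2 fold change, CTI-2 minus control (horizontal axis), of the 7 tested genes with all 6 libraries (black lines), without 1 CTI-2 library (red triangles), without 1 control library (blue triangles) and under another test, scaling, filter or trend removal (grey squares). PLIN2 stays between 0.75 and 0.88 and PNPLA3 between -1.33 and -1.0, but both were chosen for their changes in these same libraries. PLIN3, DGAT1 and ABHD5 have values on both sides of 0.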

How the data were processed

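Per the labels' protocols, RNA was taken up in Trizol and 1 cDNA library per sample was made with a Nanopore cDNA-PCR kit. The submitters' processing notes name minimap2; its version, the build, annotation, counter and use of strand are not stated in what was used here. Deposited by the authors were read counts per gene as whole numbers, gene spans in bases, and CPM, which matched counts per 1000000 of each library within 1e-09. The default filterByExpr left 9848 genes. After TMM scaling these were compared in R 4.3.3 by the robust quasi-likelihood test of edgeR 4.0.16, CTI-2 minus control, with Benjamini-Hochberg adjustment over all tested genes and a threshold of 0.05. SE and 95% intervals were derived from the fold change and the F statistic. Counting intervals are exact (Clopper-Pearson) and cover counting error only, since reads carry no molecular identifiers. The fit was tested on simulated counts. The common biological coefficient of variation was 0.100.

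Identifiers were matched to GENCODE 29, where 80.6% of Ensembl spans equalled the deposited ones. Its coordinates on GRCh38 are given only for such genes, and the files' own build is not stated.

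The genes and lists were chosen with earlier results of these data known. The rule named all 10 genes, up to 5 called genes and the 2 uncalled genes of highest mean CPM of each list, and the 3 genes most like PLIN2 and PNPLA3. PLIN4, G0S2, DGKH and the overlapping genes were added after their values were seen, as were the count ratios of PPAR list genes below the filter. Alternatives were DESeq2 1.42.0, limma-voom (limma 3.58.1), DESeq2's size factors, library totals, no filter, at least 20 counts in 3 libraries, the replicate number as a block, and leaving out each library. Subtracting a lowess curve (span 0.3) of each library on transcript length or GC content was chosen after seeing the data and covered 93.6% of tested genes. Libraries of a group differed beyond counting noise, and each counted as 1 sample. Chi-square ratios to their degrees of freedom were 1.68 to 2.26 for pairs of CTI-2 libraries and 3.53 to 6.03 for pairs of controls.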

Additional observations from a re-analysis of the deposited data

How the results depend on the processing

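The number of genes called over all genes was 791, and 504 with DESeq2, whose adjusted p covered 7163 genes; omitting 1 library gave 400 to 1610, the highest without control 2 (957 higher and 653 lower), against 334 higher and 457 lower with all 6. Of the related lists 4 genes were called, and 2 with library totals, with at least 20 counts in 3 libraries, with DESeq2, with limma-voom or with the GC trend removed, and 1 to 9 when 1 library was left out, the highest without control 2.

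The log2 fold change of PLIN2 ran from 0.75 to 0.88 and that of PNPLA3 from -1.33 to -1.0 over 15 alternatives. Both genes were chosen for their changes in these same libraries, so these 2 ranges are a description. The log2 fold change of MGLL ran from 0.28 to 0.39 over 15 alternatives (adjusted p 0.0826 to 0.335). LPIN1 ran from -0.34 to -0.07. When 1 library was left out, PLIN3 ran from -0.43 to 0.20, with 0.06 without control 3, DGAT1 from -0.01 to 0.28, and ABHD5 from -0.16 to 0.02, with 0.00 without control 1. Other values near 0 also changed sign: SOAT1 was 0.02 and LIPA 0.07 without control 3, and P4HA1 was -0.01 without control 1, in ranges whose other ends were -0.17, -0.16 and 0.27. UBXN4 was -0.07 without CTI-2 library 3, 0.01 in DESeq2, 0.03 without control 3 or CTI-2 library 1 and 0.01 without CTI-2 library 2. DGKA was 0.00 with no filter, 0.01 in DESeq2, 0.04 in limma-voom, 0.24 without control 3 (and -0.21 without control 2), 0.07 without CTI-2 library 1 and 0.04 without CTI-2 library 2. G0S2 was 0.00 without control 1, 0.10 without control 2 and 0.11 without CTI-2 library 3, and -0.37 without control 3. The cause was not tested.

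With the replicate number as a block 942 genes were called, and DGKA was 0.01. Deviations of same-numbered libraries correlated at r = -0.049, 0.007 and -0.124 across genes. With 3 libraries per group, these values cannot show whether same-numbered libraries shared a batch or a culture. Not every library correlated best with its own number.

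Depth limited DGAT2, with at most 2 counts in a library, and HILPDA, with at most 8: 3 counts correspond to 0.763 to 1.36 CPM.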
